A study of Glycine max with 18 samples.

Results

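The contrast described here set the leaf transcriptome at ZT44, late in the subjective night, against that at ZT32, in the subjective day, 12 h earlier in the same day of constant light. ZT is zeitgeber time, and the submitters labelled ZT44 and ZT32 as 20 h and 8 h, counted from subjective dawn at ZT24. The 6 libraries compared, replicates L, M and R at each time, were 6 of the 18 total RNA libraries in the series, which also covered ZT24, ZT28, ZT36 and ZT40 with 3 libraries each. All of them came from the first trifoliate leaf of wild-type soybean Ws82, the cultivar whose genome served as the reference, and ZT44 and ZT32 shared genotype, tissue and constant light, so that only the time of sampling differed by label. The sample descriptions give about 18 days of growth under 8 h of light and 16 h of dark, whereas the series description gives 14 days under 12 h of light and 12 h of dark. Both place sampling after 1 day of constant light. Each letter was stated to be a separate biological replicate, and whether the 3 plants mentioned in the series description were pooled is not said.

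In a free-running plant, gene expression continues to cycle without light or dark cues. In Arabidopsis the circadian oscillator is a set of mutually repressing transcription factors. The MYB factors CCA1 and LHY accumulate around dawn and repress genes of the evening, pseudo-response regulators follow one after another through the day and repress CCA1 and LHY, and the evening complex, formed by ELF3, ELF4 and LUX, acts around dusk and at night. Soybean carries several copies of most of these genes. Light harvesting, photoreceptors and growth regulators such as PIF4 are among the many outputs under its control.

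Levels were compared as log2(TPM + 1), where TPM is a length-corrected share of the transcripts in a library. A gene was tested if it had a mean of at least 1 TPM at ZT44 or at ZT32, and it was called if its Benjamini-Hochberg adjusted p in limma, over all genes tested, was under 0.05. Of 55589 annotated genes, 21003 were tested. These included 4293 that reached 1 TPM at ZT44 but not at ZT32 and 1966 that did so at ZT32 but not at ZT44. Fold changes on this scale understate the change of genes with low levels, and p-values measure the spread among libraries of the same time point, pooled over the 6 time points and 18 libraries. In whole leaf tissue, a change in the makeup of cells and a change in transcripts per cell cannot be told apart.

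The libraries differed in ways that touch the comparison. Aligned sequence, estimated from the coverage columns, was 3.11 to 3.53 Gb at ZT44 and 5.17 to 6.12 Gb at ZT32. Library ZT32 R stood apart from its replicates. The TPM of its annotated genes summed to 51.3% of 1000000, against 63.2 to 67.8% in the 3 ZT44 libraries and 69.1 and 70.8% in ZT32 L and M. In every library the assembled loci, listed beside the genes, summed to a further 1000000. Its table listed 227701 assembled loci without a strand, against 881 to 1908 at ZT44 and 26574 and 24321 in ZT32 L and M. ZT32 R lay below the mean of ZT32 L and M in 86.1% of the genes tested, by a median of 0.55 on the log2 scale. The main comparisons are therefore also given without ZT32 R and after quantile normalization, which forces one distribution of values on all libraries. A call is described as held when it was made in the same direction in all 3 fits. Loci without a strand were also more numerous in ZT32 L and M than at ZT44. Genes above 0 TPM numbered 48357 to 49348 at ZT32 and 39654 to 41776 at ZT44. Leaving out ZT32 R or quantile normalization need not remove a difference that all ZT32 libraries share. Such a difference cannot be told apart from the time of sampling. GmCAB2-7, a chlorophyll a/b-binding protein gene that marks green leaf tissue, was detected in all 6 libraries.

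The number of genes that differed between the late subjective night and the subjective day was large. With the values as deposited, 10220 of 21003 genes were called (48.7%), of which 7904 were higher (37.6%) and 2316 lower (11%) at ZT44. The balance between higher and lower depended on the scaling and the filter. Of the calls, 77.3% were higher at ZT44 with the values as deposited and 65.1% without ZT32 R. The share was 58.3% after quantile normalization and 56.1% after median-ratio scaling. Without a filter it was 49.5%, with a median difference over all genes of -0.052. After rescaling without the 100 highest genes it was 37.1%, with a median of -0.40. Calls covered 40.8% of the genes tested without ZT32 R and 52.5% after quantile normalization. The median difference over all genes tested was 0.42 as deposited, 0.22 without ZT32 R and 0.14 after quantile normalization. The differences given below for single genes include this shift, so that the part of each beyond the median is its value less 0.42 as deposited. No called gene changed direction between the 3 fits. Calls held for 5145 genes that were higher (24.5% of those tested) and 2085 that were lower (9.93%) at ZT44, together 34.4% of those tested. They were 65.1% of the higher and 90.03% of the lower calls made with the values as deposited.

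**Figure D1:**
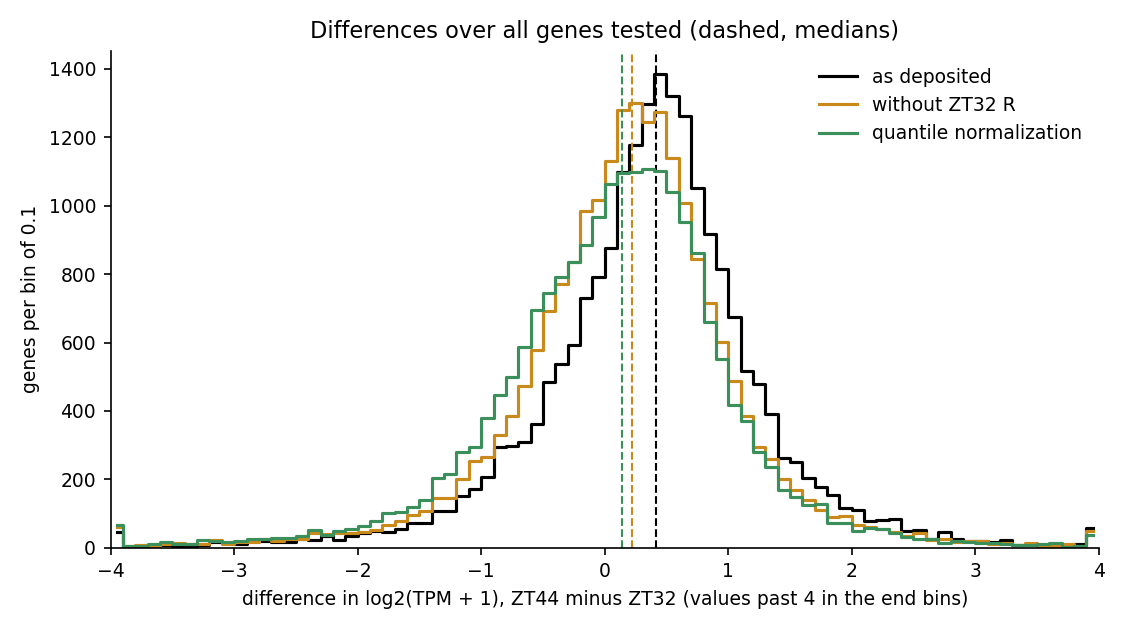
Number of genes per bin of 0.1 against the difference in log2(TPM + 1), ZT44 minus ZT32, over all genes tested in 3 fits, with dashed lines at the medians. The median lies at 0.42 as deposited, 0.22 without ZT32 R and 0.14 after quantile normalization.

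The 4 LHY genes, soybean copies of the dawn MYB factor, were all higher at ZT44 in every library. GmLHY1a (Glyma.16G017400, chromosome 16, 1526133 to 1539596, minus strand, coordinates of Gmax_Wm82_a2_v1 here and below) had 148, 121 and 164 TPM in ZT44 L, M and R, against 17.3, 14.9 and 5.45 TPM in ZT32 L, M and R. The lowest ZT44 library was above the highest ZT32 library, and ZT32 R was the lowest of all. The difference was 3.55 ± 0.34 (SE, n = 3 each; limma adjusted p = 4.00e-10), of which 3.13 lay beyond the median of all genes. It was 3.08 without ZT32 R and 2.94 after quantile normalization. GmLHY1b (Glyma.07G048500, chromosome 7, 4102968 to 4114174, minus strand) had 53.5, 39.5 and 56.8 TPM in ZT44 L, M and R, against 5.16, 6.51 and 2.22 TPM in ZT32 L, M and R. Its groups did not overlap either, and the difference was 3.25 ± 0.30 (SE, n = 3 each; limma adjusted p = 2.90e-10), with 2.89 without ZT32 R and 2.73 after quantile normalization.

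The GmLHY2 copies had low levels at ZT32. GmLHY2a (Glyma.19G260900, chromosome 19, 50396380 to 50409947, plus strand) had 43.4, 36.7 and 54.7 TPM in ZT44 L, M and R, against 1.56, 1.96 and 0.798 TPM in ZT32 L, M and R. GmLHY2b (Glyma.03G261800, chromosome 3, 45502100 to 45510812, plus strand) had 133, 105 and 159 TPM in ZT44 L, M and R, against 1.24, 1.26 and 0.604 TPM in ZT32 L, M and R. In neither gene did the groups overlap, and the ratio of mean TPM at ZT44 over ZT32 was 31.2 for GmLHY2a and 128 for GmLHY2b. The differences were 4.25 ± 0.32 for GmLHY2a (SE, n = 3 each; limma adjusted p = 1.84e-12) and 6.03 ± 0.31 for GmLHY2b (SE, n = 3 each; limma adjusted p = 2.60e-16). Without ZT32 R they were 4.04 for GmLHY2a and 5.87 for GmLHY2b. GmLHY2b had the second largest positive difference among the 3334 genes, of either direction, with held calls, groups that did not overlap and a mean of at least 5 TPM at the higher time.

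The makeup of the LHY transcripts also differed between the times, in a measure that does not depend on scaling between libraries. GmLHY2b made up 35.2, 34.8 and 36.6% of the summed TPM of the 4 genes in ZT44 L, M and R, against 4.90, 5.13 and 6.66% in ZT32 L, M and R. GmLHY1a made up 39.1, 40.02 and 37.8% in ZT44 L, M and R, against 68.5, 60.4 and 60.1% in ZT32 L, M and R. Thus GmLHY1a led the sum at both times, with GmLHY2b close behind it at ZT44 and the least abundant copy at ZT32. The shares of all 4 copies separated the groups without overlap, each with an exact two-sided permutation p = 0.10, the smallest that 3 against 3 libraries allow. The shares of a library sum to a whole, so they are not separate results. They also restate the unequal differences of the copies given above, and the p-values add no support to those. The copies are related in sequence, and how reads common to several copies were assigned is not given in the sources used here.

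GmRVE2d (Glyma.18G044200, chromosome 18, 3813589 to 3817289, minus strand) is named for the REVEILLE group of MYB factors, relatives of LHY. It had 40.7, 24.0 and 30.3 TPM in ZT44 L, M and R, against 0.153, 0.539 and 0.436 TPM in ZT32 L, M and R. All ZT44 libraries were far above all ZT32 libraries, and ZT32 R lay between its replicates. The difference was 4.55 ± 0.25 (SE, n = 3 each; limma adjusted p = 2.23e-15), and 4.58 without ZT32 R.

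**Figure D2:**
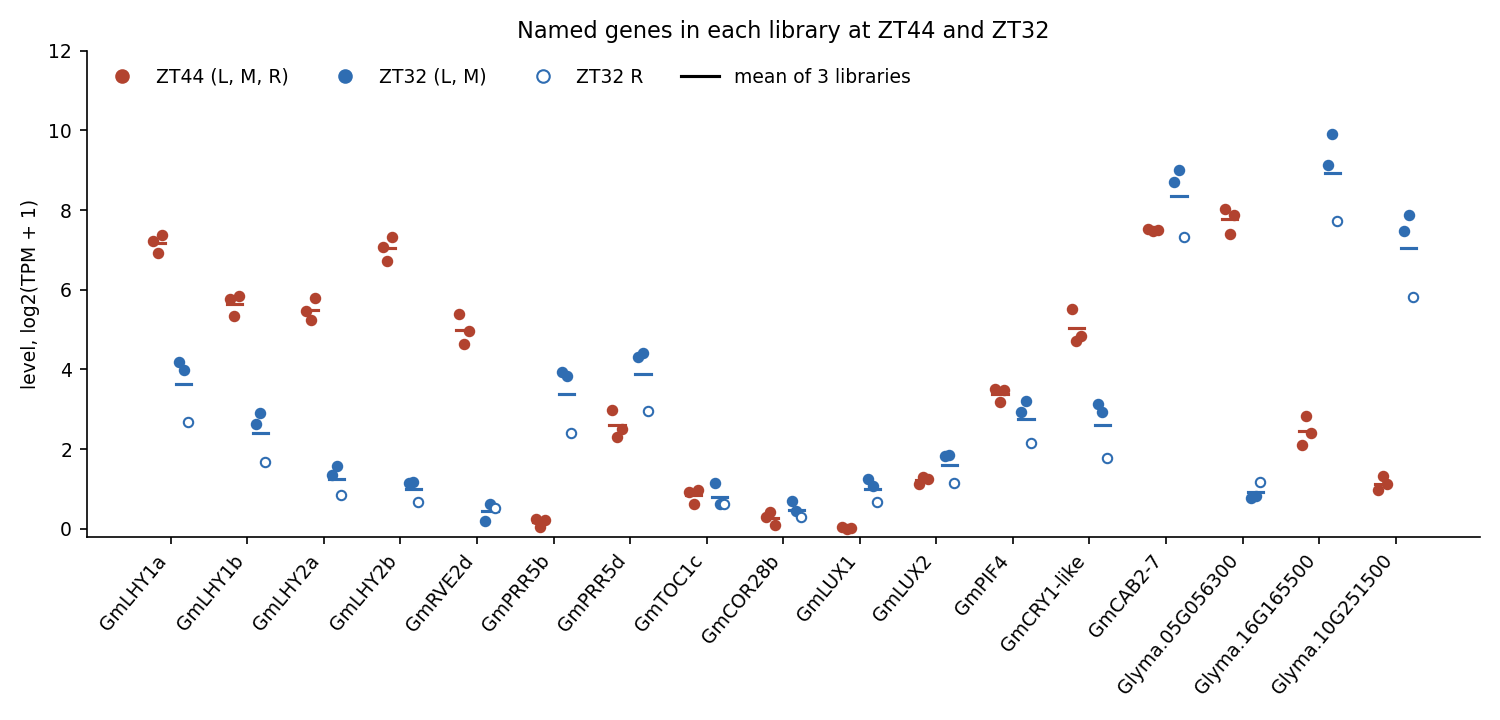
Level of each named gene as log2(TPM + 1) in each library, with ZT44 libraries left of ZT32 libraries, lines at the mean of 3 libraries and an open circle for ZT32 R. The 4 LHY genes, GmRVE2d, GmCRY1-like and Glyma.05G056300 lay higher in all ZT44 libraries, and GmPRR5b, GmLUX1, Glyma.16G165500 and Glyma.10G251500 lay lower in all of them, without overlap.

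Both PRR5 copies, named for a pseudo-response regulator that represses the dawn genes in Arabidopsis, were lower at ZT44. GmPRR5b (Glyma.04G228300, chromosome 4, 49758485 to 49763637, minus strand) had 0.185, 0.0230 and 0.172 TPM in ZT44 L, M and R, against 14.3, 13.2 and 4.31 TPM in ZT32 L, M and R. The groups did not overlap. The difference was -3.22 ± 0.27 (SE, n = 3 each; limma adjusted p = 2.25e-11), and -5.48 with a pseudocount of 0.1 in place of 1, since its ZT44 levels lay far under 1 TPM. GmPRR5d (Glyma.07G049400, chromosome 7, 4201368 to 4206174, minus strand) had 6.96, 3.93 and 4.68 TPM in ZT44 L, M and R, against 18.8, 20.1 and 6.73 TPM in ZT32 L, M and R. Here ZT32 R fell inside the range of the ZT44 libraries, while ZT32 L and M lay well above it. The difference of -1.29 ± 0.32 (SE, n = 3 each; limma adjusted p = 0.00131) was -1.76 without ZT32 R (limma adjusted p = 3.91e-06).

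The balance of dawn and day transcripts within each library is free of differences in scale. The summed TPM of the 4 LHY genes over that of GmPRR5b and GmPRR5d was 52.9, 76.4 and 89.8 in ZT44 L, M and R, against 0.762, 0.739 and 0.822 in ZT32 L, M and R. ZT32 R, low in each of these 6 genes, had a ratio close to those of its replicates. GmPRR5b provided 2.59, 0.580 and 3.54% of the summed PRR5 pair in ZT44 L, M and R, against 43.2, 39.5 and 39.04% in ZT32 L, M and R. Neither measure overlapped between the groups (exact two-sided permutation p = 0.10 for each, the smallest possible). Both were built from genes already called in these same libraries, so the values describe the size of the difference and the p-values add no support.

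GmLHY1b and GmPRR5d lie on the same strand of chromosome 7 with 87193 bp between them and differed in opposite directions. The interval holds 8 annotated genes, 5 of which were tested, and the calls that held there were 2 higher and 1 lower at ZT44.

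Evening genes had low levels at both times. LUX encodes the DNA-binding member of the evening complex. GmLUX1 (Glyma.12G060200, chromosome 12, 4345126 to 4348039, minus strand) had 0.0334, 0 and 0.0108 TPM in ZT44 L, M and R, against 1.37, 1.11 and 0.580 TPM in ZT32 L, M and R. The groups did not overlap, and the difference was -0.97 ± 0.19 (SE, n = 3 each; limma adjusted p = 0.000137), or -3.23 with a pseudocount of 0.1. Without ZT32 R it was -1.14, and without ZT32 L or without ZT32 M the gene fell under 1 TPM at both times and was not tested. GmLUX2 (Glyma.11G136600, chromosome 11, 10366710 to 10369847, minus strand) had 1.16, 1.48 and 1.36 TPM in ZT44 L, M and R, against 2.53, 2.59 and 1.21 TPM in ZT32 L, M and R. All ZT44 libraries lay below ZT32 L and M but not below ZT32 R. The difference of -0.38 (95% interval -0.86 to 0.095; limma adjusted p = 0.175) was not called, whereas it was called at -0.61 without ZT32 R (limma adjusted p = 0.0353) and at -0.69 after quantile normalization (limma adjusted p = 0.000924). Whether the difference differed between GmLUX1 and GmLUX2 was not tested.

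GmTOC1c (Glyma.06G196200), a copy of the evening pseudo-response regulator TOC1, and GmCOR28b (Glyma.07G213000), named for a cold-regulated gene that also acts in the Arabidopsis clock, stayed under 1 TPM on average at both times and were not tested. GmTOC1c had 0.896, 0.540 and 0.981 TPM in ZT44 L, M and R, against 1.21, 0.545 and 0.526 TPM in ZT32 L, M and R. GmCOR28b had 0.233, 0.330 and 0.0597 TPM in ZT44 L, M and R, against 0.628, 0.352 and 0.229 TPM in ZT32 L, M and R. In both genes the groups overlapped. Their highest means fell at ZT36, between the times compared, with 2.49 TPM for GmTOC1c and 1.84 TPM for GmCOR28b.

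Among light-related genes, the photoreceptor gene GmCRY1-like (Glyma.14G174200, chromosome 14, 42984699 to 42990498, plus strand), named for the blue-light receptor cryptochrome 1, had 45.05, 25.4 and 27.7 TPM in ZT44 L, M and R, against 7.76, 6.65 and 2.40 TPM in ZT32 L, M and R. The groups did not overlap, and the difference was 2.42 ± 0.32 (SE, n = 3 each; limma adjusted p = 2.67e-07), or 2.00 without ZT32 R and 1.88 after quantile normalization. GmCAB2-7 (Glyma.16G016100, chromosome 16, 1404906 to 1407307, minus strand) had 183, 176 and 180 TPM in ZT44 L, M and R, against 417, 516 and 159 TPM in ZT32 L, M and R. The 3 ZT44 values were close together, ZT32 L and M lay far above them and ZT32 R below them. With all libraries the difference was -0.85 (95% interval -1.59 to -0.11; limma adjusted p = 0.0531) and was not called. It was called at -1.36 without ZT32 R (limma adjusted p = 0.000332) and at -1.06 after quantile normalization (limma adjusted p = 0.000574).

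GmPIF4 (Glyma.08G303900), which encodes a bHLH factor that promotes growth in Arabidopsis, had 10.3, 8.07 and 10.1 TPM in ZT44 L, M and R, against 6.62, 8.31 and 3.46 TPM in ZT32 L, M and R. The groups overlapped, since ZT32 M lay above ZT44 M. The difference of 0.62 (95% interval 0.049 to 1.19; limma adjusted p = 0.0664) was not called. It was 0.31 without ZT32 R and 0.079 after quantile normalization, where its difference less the median of all genes was -0.062. Without ZT32 M it was 0.84 and called (limma adjusted p = 0.0185).

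Across the 14 genes that the study paired with an identifier, 12 were tested, and 6 were higher, 3 lower and 3 not called at ZT44, beside 37.6% higher and 11% lower over all genes tested. ZT32 R was the lowest of the 3 ZT32 libraries in 13 of the 14, all but GmRVE2d, whichever way the gene differed between the times. In the genes that were higher at ZT44, a low value in ZT32 R widened the difference, and in those that were lower it narrowed it.

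**Figure D3:**
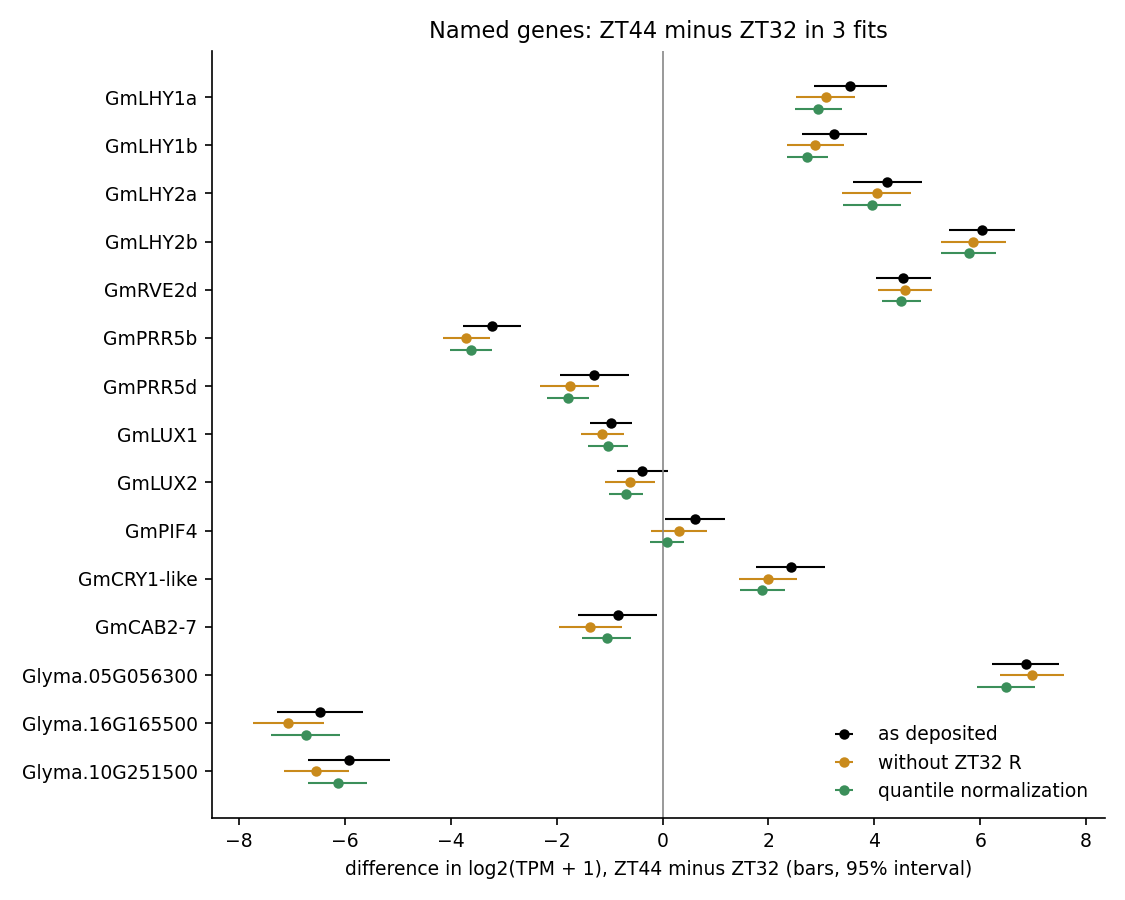
Difference in log2(TPM + 1), ZT44 minus ZT32, with its 95% interval for the named genes in the fits as deposited, without ZT32 R and after quantile normalization. GmLUX2 and GmCAB2-7 have intervals below 0 in the fits without ZT32 R and after quantile normalization, and GmPIF4 has intervals that include 0 in those fits.

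Beyond these, 3 genes without a name in the files had the widest differences among genes with held calls, groups that did not overlap and a mean of at least 5 TPM at the higher time. Glyma.05G056300 (chromosome 5, 5148962 to 5154038, minus strand) had 260, 168 and 235 TPM in ZT44 L, M and R, against 0.696, 0.766 and 1.24 TPM in ZT32 L, M and R. Its difference, 6.86 ± 0.31 (SE, n = 3 each; limma adjusted p = 4.82e-17), was the largest positive one, and here ZT32 R was the highest ZT32 library. Glyma.16G165500 (chromosome 16, 32457671 to 32458673, minus strand) had 3.30, 6.13 and 4.33 TPM in ZT44 L, M and R, against 560, 958 and 211 TPM in ZT32 L, M and R. Glyma.10G251500 (chromosome 10, 47969725 to 47971337, plus strand) had 0.961, 1.49 and 1.16 TPM in ZT44 L, M and R, against 176, 235 and 55.6 TPM in ZT32 L, M and R. These 2 genes had the largest negative differences, -6.47 ± 0.40 for Glyma.16G165500 (SE, n = 3 each; limma adjusted p = 2.28e-14) and -5.92 ± 0.38 for Glyma.10G251500 (SE, n = 3 each; limma adjusted p = 6.49e-14). In both genes the ZT32 libraries differed widely, with ZT32 R the lowest, and each of them lay far above every ZT44 library.

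Differences of more than 1 on the log2 scale, a 2-fold change of TPM + 1, were called in 3973 genes that were higher and 1218 that were lower at ZT44. Above 2 there were 746 higher and 342 lower genes, above 3 there were 174 higher and 117 lower, and above 4 there were 50 higher and 39 lower. All genes with called differences above 4 had held calls and groups that did not overlap. Above 5 the order was turned, with 9 genes higher and 12 lower. In the 50 genes higher by more than 4, the median level was 57.2 TPM at ZT44 and 1.16 TPM at ZT32, and 22 of them averaged under 1 TPM at ZT32. In the 39 genes lower by more than 4, the median level was 1.20 TPM at ZT44 and 57.0 TPM at ZT32, and 18 averaged under 1 TPM at ZT44. The medians of the 2 groups were alike, at opposite times.

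Complete loss of a transcript was rare among the genes tested. In 37 genes, all called, all 3 ZT44 libraries were listed at 0 TPM, and in 4 genes, all called, all 3 ZT32 libraries were listed at 0. Such a gene entered the test only through a mean of at least 1 TPM at the other time. The filter thus chose these genes as differing, and it also limited their number. No gene with a mean of at least 5 TPM at one time was listed at 0 in all 3 libraries of the other. Over all annotated genes, 8179 were listed at 0 in all ZT44 libraries and 1812 in all ZT32 libraries. Depth was lower at ZT44 than at ZT32, and loci without a strand were fewer. The part of either in these counts cannot be told apart from that of time and was not tested.

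Of the 10783 genes not called, 8245 had a 95% interval that stayed within 1 on the log2 scale in either direction, so that a difference of more than 2-fold in TPM + 1 lay outside their intervals, and 2538 had an interval that reached past 1. In genes of low level the scale itself limits the difference. GmLUX1, a called gene, had a mean TPM 69.2 times as high at ZT32 as at ZT44, yet differed by -0.97. The intervals also include the median shift of 0.42. An interval within 0.5 in either direction was found in 241 genes of all those tested. This count is limited by the width of the intervals, which for many genes could not fit within 0.5 at any difference, and is no count of steady genes.

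Groups of libraries that did not overlap were found in 8350 genes with ZT44 above ZT32 (39.8%) and in 2300 genes with ZT44 below ZT32 (11%), 50.7% of the genes tested. Of the called genes, the groups were apart in 90.7% of those higher and 84.9% of those lower at ZT44. Where the groups of a called lower gene overlapped, in 350 genes, ZT32 R alone made them overlap in 285. Among the called higher genes with overlap, 733 in number, this was so for 42.

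The called genes took different shares of the annotated transcripts. Genes called higher made up 41.5, 31.7 and 35.4% of the annotated gene TPM in ZT44 L, M and R, against 18.1, 18.5 and 10.7% in ZT32 L, M and R. Genes called lower made up 13.0, 16.5 and 15.5% in ZT44 L, M and R, against 36.2, 31.2 and 52.9% in ZT32 L, M and R. The calls chose these genes, so the direction is given, and the values show its size: the lower genes, 2316 of the 10220 calls, outweighed the higher genes in every ZT32 library. Among the 100 most abundant genes, held calls were 18 higher and 20 lower at ZT44, against 24.5 and 9.93% over all genes tested.

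The means of the other 4 time points, which the contrast did not compare but whose libraries entered the shared estimate of the spread, showed where these genes stood in the rest of the day. The genes with held calls that were higher at ZT44 had median log2 levels that declined through ZT24 (2.21) and ZT28 (1.70) to 1.19 at ZT32, and then stood at 2.27 by ZT36, 2.53 by ZT40 and 2.57 by ZT44. ZT32, at which the call chose them as low, was the lowest of the 6 means in 3946 of 5145 genes (76.7%). The highest mean fell at ZT44 in 1938 (37.7%), at ZT40 in 1315 (25.6%) and at ZT36 in 1193 (23.2%), beside 12.1, 32.9 and 29.9% of all genes tested. The genes that were lower at ZT44 had medians that climbed through ZT24 (1.47) and ZT28 (1.89) to 2.26 at ZT32, and then stood at 1.74 by ZT36, 1.60 by ZT40 and 0.92 by ZT44. ZT44 was the lowest mean in 1388 of 2085 (66.6%), and the highest was ZT32 in 933 (44.7%), ZT28 in 483 (23.2%) and ZT36 in 406 (19.5%), beside 6.19, 8.18 and 29.9% of all genes tested. The call itself chose these genes as high at ZT32 and low at ZT44. Over all genes tested, called or not, ZT32 was the lowest of the 6 means in 47.9% and ZT44 in 14.1%, and the low values of library ZT32 R enter the first of these.

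**Figure D4:**
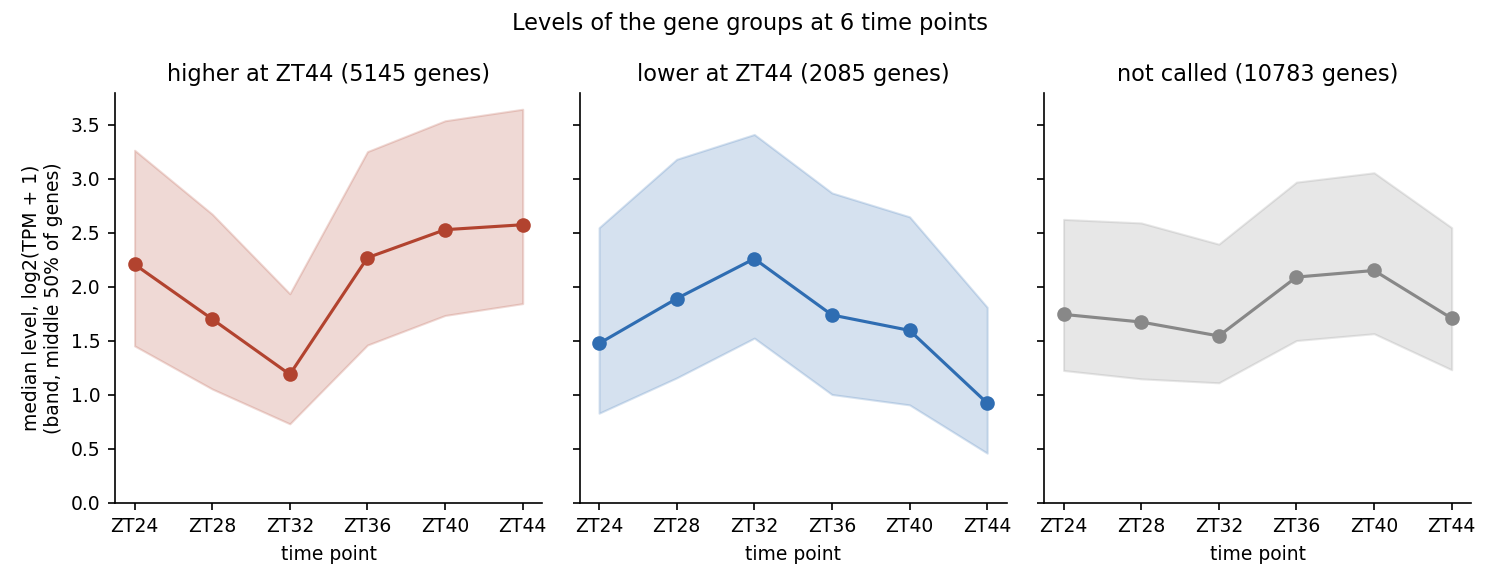
Median level as log2(TPM + 1), with the band of the middle 50% of genes, at the 6 time points for genes with held calls higher at ZT44, genes with held calls lower at ZT44 and genes not called. The higher genes dip to 1.19 at ZT32 and the lower genes to 0.92 at ZT44.

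The genes with the widest differences were chosen by their levels at ZT44 and ZT32, so the times of their highest and lowest means are a description of that choice and of the other times. Of the 50 genes higher by more than 4, 44 had their highest mean at ZT44 and 30 their lowest at ZT32, the other 20 being lowest at ZT36. Of the 39 genes lower by more than 4, 23 had their highest mean at ZT32 and 27 their lowest at ZT44. The LHY genes themselves were not at their lowest at ZT32. GmLHY1a averaged 12.5 TPM at ZT32 and 2.01 TPM at ZT36, and GmLHY2b averaged 1.03 TPM at ZT32 and 0.178 TPM at ZT36. Glyma.16G165500 was at its highest at ZT32 with 576 TPM on average and had 4.82 TPM at ZT36, 4.13 TPM at ZT40 and 4.59 TPM at ZT44. Glyma.10G251500 was as high at ZT36, with 168 TPM on average, as at ZT32, with 155 TPM, and had declined to 23.0 TPM at ZT40.

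The means of the other pairs of time points 12 h apart share no library with ZT44 and ZT32. The pairs came from the same fit of 18 libraries, however, so each gene has the same estimate of its spread in every pair. A gene with a small estimate is more readily called in all of them. The shares called below are therefore not independent of the held calls, and how far this raised them was not tested. Of the same 21003 genes, 47.6% were called at ZT40 against ZT28 and 37.9% at ZT36 against ZT24. Of the genes with held calls that were higher at ZT44, 84.2% were also higher at ZT40 than at ZT28, beside 79.2% over all genes tested, and 57.3% were called so, beside 39.8%. Of those that were lower at ZT44, 62.2% were also lower at ZT40 than at ZT28, beside 20.8% over all genes tested, and 33.9% were called so, beside 7.7%. The share of higher genes that kept their sign was thus close to that of all genes. At ZT36 against ZT24, 22.1% of the higher genes were called higher and 23.1% were called lower, beside 25.2% higher and 12.7% lower over all genes tested. Of the lower genes, 30.2% were called higher and 16.1% were called lower there. Single genes departed from these shares. The difference of GmLHY1a was -2.23 ± 0.34 for ZT40 against ZT28 and -6.14 ± 0.34 for ZT36 against ZT24 (SE, n = 3 each), both called. GmRVE2d was higher at ZT40 than at ZT28 by 5.11 ± 0.25, as at ZT44 against ZT32, and differed by 0.025 ± 0.25 between ZT36 and ZT24 (SE, n = 3 each).

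Genes called in either direction were spread over the genome. Among the 20 chromosomes, the share of tested genes with held calls was 22.3 to 27.6% for higher and 8.32 to 12.1% for lower at ZT44, and the strands had like shares, with 24.3% higher on the plus strand and 24.7% on the minus strand. The span of the gene, from its first to its last annotated base, went with the direction of the call. In 5 equal groups of genes by span, held calls that were higher at ZT44 made up 21.0, 21.1, 23.1, 25.3 and 31.95%, with the shortest genes first, and held calls that were lower made up 15.8, 11.8, 9.50, 8.07 and 4.55%. The shortest group reached 2115 bp and the longest began at 6612 bp. The median difference increased with span as well, and was 0.11 in the shortest and 0.41 in the longest group without ZT32 R, and -0.11 and 0.39 after quantile normalization. The deviation of ZT32 R from its replicates had medians of -0.44, -0.59, -0.61, -0.60 and -0.51 in the same groups. Whether technical features shared by all ZT32 libraries vary with span was not tested. Within each of 5 groups of like abundance, the longer genes were more often higher, 18.8 to 38.5% against 15.2 to 26.1% for the shorter genes, and less often lower, 5.14 to 9.05% against 10.8 to 16.9%. These shares are descriptive and were not tested.

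**Figure D5:**
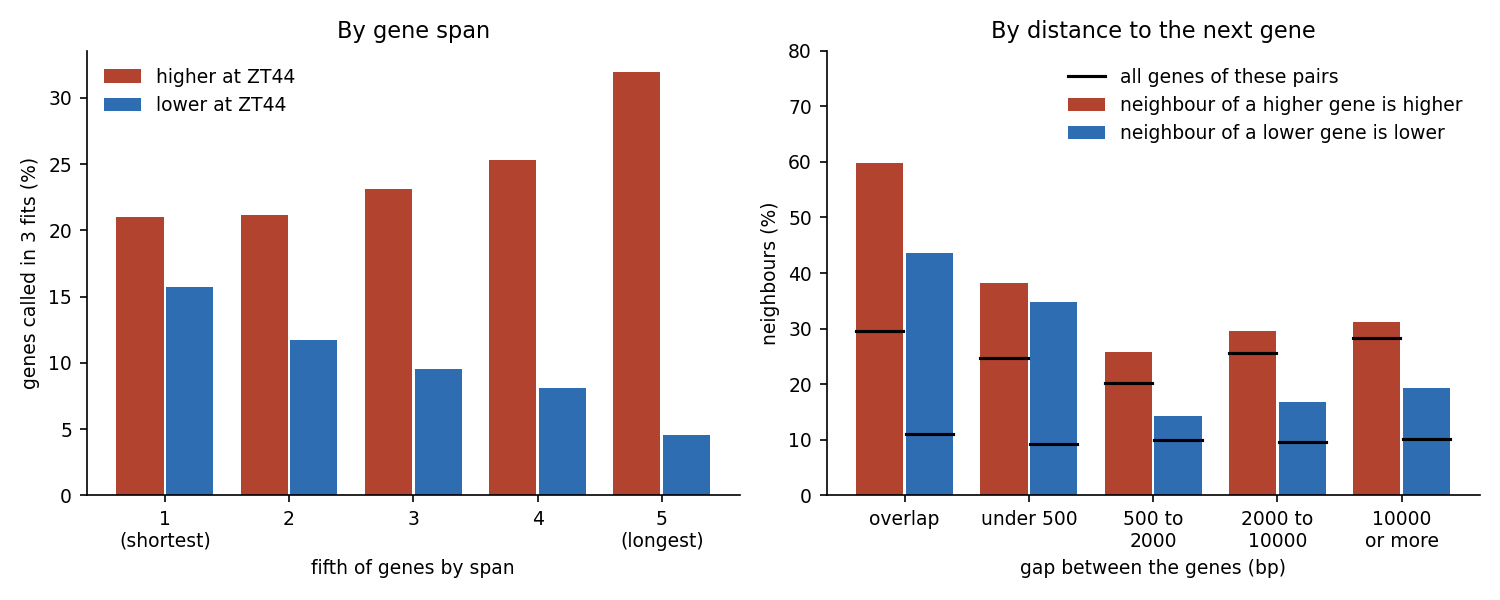
Left, share of tested genes with held calls in 5 equal groups by gene span. Right, share of neighbours called in the same direction, by the gap between adjacent genes, with black lines at the share over all genes of those pairs. Higher calls increase to 31.95% and lower calls decrease to 4.55% in the longest genes, and same-direction neighbours are most frequent where genes overlap.

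Adjacent genes shared a direction somewhat more frequently than all genes of such pairs. In 8911 pairs of adjacent annotated genes, both tested, the neighbour of a gene with a held higher call was also higher in 30.6%, beside 24.8% of all genes in these pairs, and the neighbour of a gene with a held lower call was also lower in 18.5%, beside 9.79%, but higher in 18.2%. The shares were greatest for the 249 pairs that overlap, at 59.9 and 43.6%, where reads from one gene may be counted for the other, since strand use in the quantification is not given in the sources used here. In the 499 pairs with a gap under 500 bp they were 38.2 and 34.8%, and in pairs at least 10000 bp apart they were 31.1%, beside 28.4% over all genes of those pairs, and 19.3%, beside 10.1%. Same-direction neighbours were most frequent where genes overlap and next where the gap was under 500 bp, and at every distance both shares lay above those of all genes in the pairs. At gaps of at least 10000 bp the neighbour of a lower gene was higher in 23.8%, more frequently than lower. This lay under the 28.4% of higher genes in those pairs, whereas the 19.3% that were lower lay above their 10.1%. In the next shorter group of gaps the order was the same, with 19.5% higher, beside 25.55%, and 16.8% lower, beside 9.59%.

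The longest unbroken run of held calls among tested genes comprised 9 genes, all lower at ZT44, in a stretch of 86717 bp on chromosome 18 (39370821 to 39457537) that holds 10 annotated genes in all. All 9 lie on the plus strand, had mean levels of 0.0621 to 0.383 TPM at ZT44 and 1.45 to 3.91 TPM at ZT32, and had their highest mean at ZT32. Each passed the filter only through its level at ZT32, which fixed the direction of its difference. A gene under 1 TPM at both times was not tested and could not break the run. Their differences ran from -1.94 to -1.18. The longest run of higher genes, 8 on chromosome 1 (54770777 to 54901854), had mean levels of 1.23 to 39.2 TPM at ZT44 and 0.409 to 11.9 TPM at ZT32, with differences of 0.66 to 3.05. Both runs were picked after the values were seen and are given as descriptions.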

How the data were processed

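StringTie tables were deposited per library. By the methods, the authors trimmed adapters with Trimmomatic 0.39, aligned reads to Gmax_Wm82_a2_v1 with HISAT2 2.2.1 and quantified genes with StringTie, whose version and strand setting are not given in the sources used here. The deposited TPM values are treated as a signal, since annotated genes and assembled loci are listed side by side and so exceed the scale of 1 set. The deposited FPKM values entered 1 alternative. The deposited coverage signal over FPKM gave the aligned amount of each library. In 2 tables, ZT32 R among them, coverage dips below 0 and is treated as a score made by the authors' tool.

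Annotated rows were summed per gene. R 4.3.3 with limma 3.58.1 fitted log2(TPM + 1) with 1 mean per time point over all 18 libraries, so that the 6 time points share an estimate of the spread (empirical Bayes with trend, contrast ZT44 minus ZT32, threshold 0.05 after Benjamini-Hochberg adjustment, 95% intervals), for genes with a mean of at least 1 TPM at either time. The procedure was tested on simulated data with 1 spread per gene and no shifted library such as ZT32 R. It recovered 45% of differences of 1 on the log2 scale and 98% of differences of 2, and 4.67% of calls were false. TPM carries no counts, and precision was taken from replicates.

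Named genes are the 14 that the study paired with an identifier, and the 2 largest differences in each direction among genes with held calls, groups apart and at least 5 TPM at the higher time. Members and lists were chosen with earlier results of these data known. Alternatives were another pseudocount, other filters and scalings, FPKM, no trend, a replicate block, the 6 libraries alone, leaving out each library, and array quality weights. Of the 59048 rows of the RefSeq gene table, none matched a file identifier directly and synonyms matched the 4 LHY genes, so groups by product were not analysed here, and no sequences were used.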

Additional observations from a re-analysis of the deposited data

How the results depend on the processing

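The differences of the 15 tested named genes kept their direction in all 281 alternative values, and no tested gene lost its call. GmLUX1 left the genes tested under the 5 TPM filter, without ZT32 L and without ZT32 M, and GmLUX2 under that filter. In 21 values GmLUX2, GmPIF4 or GmCAB2-7 gained a call. Leaving out 1 library at a time gave 8312 to 10979 called genes, 5652 to 8893 higher and 2012 to 3029 lower at ZT44, 65.1 to 81.0% of calls higher, and a median difference of 0.22 to 0.53; the value of 0.22 came without ZT32 R. Of the scalings, quantile normalization gave 4604 lower genes, 58.3% of calls higher and a median difference of 0.14; median-ratio scaling gave 5055, 56.1% and 0.088. Rescaling without the 100 highest genes passed 44069 genes through the filter and gave 17992 calls, 11321 lower, 37.1% higher, 18945 genes with groups apart and a median reversed to -0.40. Without ZT32 R, quantile normalization gave 4924 lower, 52.9% and 0.042, and rescaling 7726 lower, 44.1% and a median reversed to -0.15. Array quality weights gave 3565 lower genes and a median of 0.31. A filter of at least 5 TPM tested 7383 genes and gave 4611 calls, 3678 higher and 933 lower, 4464 with groups apart and a median of 0.68. Without a filter 7392 genes were lower, 49.5% of calls were higher, 19663 genes had groups apart and the median reversed to -0.052. A pseudocount of 0.1 gave a median of 0.63. Of genes called lower, 60.1% were also lower at ZT40 than at ZT28, and 44.2% of those called lower after quantile normalization, beside 20.8% over all genes tested. Levels at ZT40 and ZT28 were the deposited ones in each case, so the 44.2% combines calls after quantile normalization with values that were not normalized. The cause of these shifts was not tested.

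With a replicate block 10546 genes were called, 8162 higher and 2384 lower, and GmCAB2-7 passed the threshold (limma adjusted p = 0.0452). Deviations of libraries with the same letter correlated at -0.0036, 0.042 and -0.052 across genes, so the letters were not taken to pair the libraries. Groups by product and promoter motifs were not run.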
